A study of Mus musculus with 6 samples.

Results

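The messenger RNA of 8 genes of the ADAM family (Adam8, Adam9, Adam10, Adam12, Adam15, Adam17, Adam19 and Adam23) was measured in muscle satellite cells, the stem cells that lie beside muscle fibres, with and without the DNA methyltransferase gene Dnmt1. The 8 genes were chosen from the 34 ADAM genes in a table of 23420 genes, with their measured levels and their difference between these same groups already known. Their values and the calls on them are therefore given as a description, without p-values. Of the 34 genes, 26 are not among the 8. There were 3 Dnmt1 KO libraries and 3 control libraries. Per the labels the deletion is specific to satellite cells, in mice made from a Pax7-CreERT2 line and a floxed Dnmt1 line: Pax7, a gene of satellite cells, drives a Cre recombinase that tamoxifen switches on. All 6 samples were from male C57BL/6 mice of 7 weeks, and the mice were given tamoxifen or vehicle for 5 days. The sources used here do not say which samples were given which, or whether the control mice carried Cre or floxed alleles. Nor do they state that replicates are separate animals, so their spread may be technical.

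ADAM proteins are membrane-anchored proteins with a metalloprotease and a disintegrin domain. An inhibitory prodomain is removed on the way to the cell surface, and the active enzymes then cut the outer parts of other membrane proteins close to the membrane, which is called shedding. ADAM10 and ADAM17 are the sheddases with the broadest known roles: ADAM10 starts the activation of Notch, which helps to keep satellite cells quiescent, and ADAM17 releases tumour necrosis factor and ligands of the EGF receptor. ADAM12 and ADAM19 are known from forming and regenerating muscle, ADAM8 from granulocytes and monocytes, and ADAM23 from the brain.

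Values are scaled read counts, that is, reads per gene multiplied by 1 factor per library. The libraries held few reads assigned to genes, 954786 to 1347051 in Dnmt1 KO samples and 1403242 to 2021725 in control samples. These totals were recovered from the scaled values, and the numbers of reads sequenced are not given here. Dnmt1 itself had 74.6, 36.1 and 81.2 in Dnmt1 KO libraries and 614, 539 and 655 in control libraries (log2 fold change -3.29, SE 0.27). Pax7, which marks satellite cells, had 64.5, 58.2 and 66.5 in Dnmt1 KO libraries and 124, 99.0 and 120.3 in control libraries, and Myod1, which marks myogenic cells, had at least 1096 in each Dnmt1 KO library and at least 1451 in each control library. In bulk samples such as these, fewer cells of a type and less RNA per cell cannot be told apart. Control replicate 2 stood apart in muscle differentiation genes: the summed value of 20 contractile genes was 7511, 7141 and 2331 in Dnmt1 KO replicates 1, 2 and 3, and 1472, 17074 and 999 in control replicates 1, 2 and 3. Log2 fold changes are those of log2(value + 1), Dnmt1 KO minus control, which understates the change of low genes. A gene is called where its adjusted p was under 0.05 by limma over the 12591 genes tested, and 1.67% of these were called higher and 0.0953% called lower.

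Adam8 lies on the minus strand of chromosome 7 (chr7:139978941-139992488, mm10, 24 exons as listed). The 2 promoter windows below are shown because Dnmt1 copies methylation at CG pairs and because Adam8 had the lowest and Adam10 the highest number of them among the 6 of the 8 genes with a RefSeq window. Each window runs 5′ to 3′ on the gene's strand, from 250 bases before to 50 bases after the RefSeq start (build GRCm38.p6, which is mm10), and capitals mark each CG.
Adam8 (chr7:139992513-139992812, minus strand): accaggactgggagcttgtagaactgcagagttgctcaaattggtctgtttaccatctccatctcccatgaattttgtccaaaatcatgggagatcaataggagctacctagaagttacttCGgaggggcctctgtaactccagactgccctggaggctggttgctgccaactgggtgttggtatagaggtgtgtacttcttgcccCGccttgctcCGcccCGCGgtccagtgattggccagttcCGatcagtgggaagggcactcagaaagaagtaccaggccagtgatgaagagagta
Adam10 (chr9:70678732-70679031, plus strand): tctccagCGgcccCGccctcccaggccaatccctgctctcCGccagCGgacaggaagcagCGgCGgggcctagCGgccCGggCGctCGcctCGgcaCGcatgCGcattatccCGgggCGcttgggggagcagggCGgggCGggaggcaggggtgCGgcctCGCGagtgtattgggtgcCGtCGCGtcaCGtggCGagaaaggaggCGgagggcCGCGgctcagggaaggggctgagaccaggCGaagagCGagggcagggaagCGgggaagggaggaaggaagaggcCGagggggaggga
The Adam8 window held 6 CG pairs, with a GC content of 52.3% and an observed over expected CG ratio of 0.29. The Adam10 window held 32, with a GC content of 73.3% and a ratio of 0.84. Among the other members, the windows of Adam19, Adam15, Adam17 and Adam23 held 11, 25, 30 and 31 CG pairs. Over all 32851 windows of the table the median was 7, a CG was present in 94.6%, and 47.9% held 6 or fewer. The Adam8 window was thus near the median of all promoters in CG pairs, while 91.4% of windows held no more than that of Adam10. The RefSeq starts lay 74 bases from the gene start in the deposited table for Adam8 and 19 bases for Adam10. Methylation was not measured here, and the windows say nothing about it.

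Adam8 encodes a metalloprotease that can cut off its own prodomain. Its value was 76.0, 107 and 61.5 in Dnmt1 KO replicates 1, 2 and 3, and 3.01, 3.81 and 4.84 in control replicates 1, 2 and 3. The lowest Dnmt1 KO library lay far above the highest control library, so the groups did not overlap. The means were 81.6 ± 23.4 in Dnmt1 KO libraries and 3.89 ± 0.918 in control libraries (SD, n = 3 each), a ratio of 21.0. The log2 fold change was 4.06 (SE 0.33, 95% interval 3.33 to 4.79, not adjusted), and Adam8 was called higher. These values rest on 53, 107 and 50 reads in Dnmt1 KO libraries and 3, 4 and 7 reads in control libraries. Summed, 210 reads (95% exact Poisson interval 183 to 240.4) of 3403902 stood against 14 reads (7.65 to 23.5) of 4862729, a ratio of rates of 21.4 (exact interval 12.5 to 39.9). Such intervals hold counting error alone, because summing the reads leaves out the spread between libraries. Reads amplified from 1 molecule are not independent, so even the counting error may be understated. The level of Adam8 in control libraries is therefore known only coarsely, and its ratio more coarsely than its presence in all 6 libraries.

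**Figure D1:**
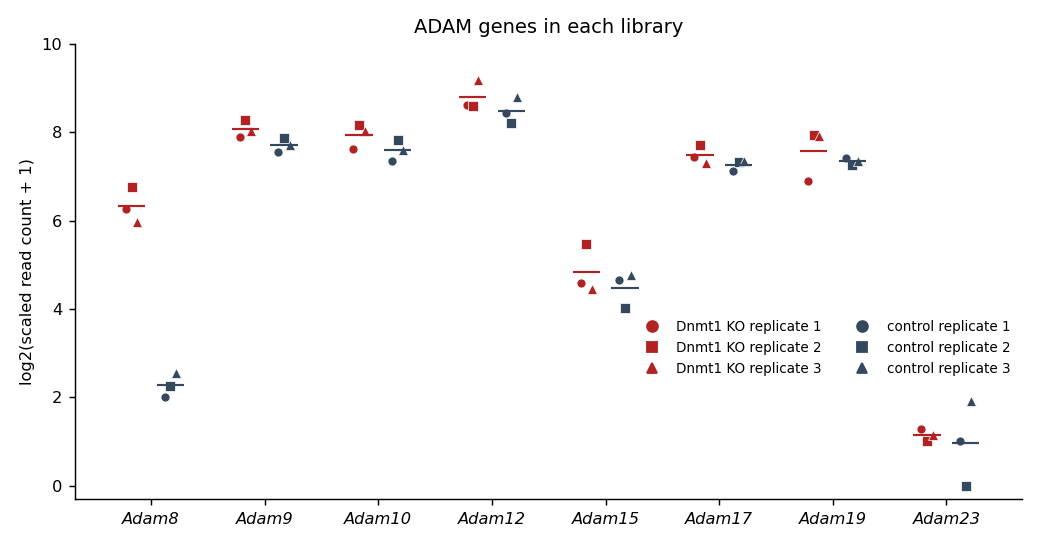
Level of each ADAM gene, as log2(scaled read count + 1), in each Dnmt1 KO library (red, left) and control library (blue, right), with a bar at the mean of each group and the shape giving the replicate number. The Dnmt1 KO libraries stand clear of the control libraries by a wide gap at Adam8, and at Adam9 by a narrow one.

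The main sheddases were detected in every library of both groups and were not called. Adam10 (chr9:70679001-70780229) had 195, 284 and 262 in Dnmt1 KO libraries and 163, 227 and 193 in control libraries. The second replicate was the highest in each group, and the groups overlapped. The log2 fold change of Adam10 was 0.34 (SE 0.19, 95% interval -0.08 to 0.76). Adam17 (chr12:21323509-21373591) had 172, 209 and 156 in Dnmt1 KO libraries and 139, 160.0 and 162 in control libraries, again with overlap. Its log2 fold change was 0.21 (SE 0.16, 95% interval -0.15 to 0.57). Both intervals reach from a slight decrease to an increase of less than 1 on the log2 scale, so changes of the size of that of Adam8 lie outside them. Of the exons of Adam17, 99 bases overlap those of Iah1 on the opposite strand. The authors' strand setting is not known, so reads of the pair may be mixed in that stretch. Of the 50-base words of Adam17 transcripts, 1.30% also occur in transcripts of other genes.

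The members known from muscle were not called either. Adam12 (chr7:133883199-134225097), which is raised in regenerating muscle and cuts insulin-like growth factor binding proteins, had 390.0, 384 and 578 in Dnmt1 KO libraries and 347, 295 and 447 in control libraries. The third replicate was the highest in each group, and control replicate 2, the library with the highest summed contractile value, was the lowest of all 6. The log2 fold change of Adam12 was 0.31 (SE 0.21, 95% interval -0.16 to 0.77). Adam19 (chr11:46055987-46147342), which cuts neuregulin and takes part in heart development, had 119, 244 and 240.0 in Dnmt1 KO libraries and 169.5, 152 and 163 in control libraries. Dnmt1 KO replicate 1 lay below every control library and the other Dnmt1 KO libraries above every one. The spread of Adam19 was 35.3% of the mean in Dnmt1 KO libraries and 5.37% in control libraries, and its log2 fold change was 0.24 (SE 0.26, 95% interval -0.33 to 0.81). Neither gene was called. Of the 50-base words of Adam12 transcripts, 3.03% occur in other genes, and 0.211% of those of Adam19.

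Adam9 (chr8:24949611-25016922) encodes a widely expressed ADAM and had 237, 309 and 259.7 in Dnmt1 KO libraries and 186, 233 and 207 in control libraries. Every Dnmt1 KO library lay above every control library, but only narrowly. The log2 fold change of Adam9 was 0.36 (SE 0.16, 95% interval 0.00066 to 0.72, not adjusted), and the gene was not called. Adam15 (chr3:89339640-89350010), whose human protein carries an integrin-binding motif in its disintegrin domain, had 22.9, 43.1 and 20.9 in Dnmt1 KO libraries and 24.1, 15.2 and 26.3 in control libraries. Dnmt1 KO replicate 2 was high, the other Dnmt1 KO libraries lay within the control range, and the log2 fold change was 0.35 (SE 0.35, 95% interval -0.43 to 1.14). Adam23 (chr1:63445904-63596515), which lacks a working protease site and binds LGI proteins at synapses, was barely detected. It had 1 read in each Dnmt1 KO library, and 1, 0 and 4 reads in control replicates 1, 2 and 3. The ratio of its rates was 0.857 (exact interval 0.133 to 4.41), and no difference was detectable at this depth.

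All 8 members passed the filter on low values. Of the 8, 1 was called higher, against 1.67% of all genes tested, and 0 were called lower, against 0.0953%. By edgeR and DESeq2, too, Adam8 alone was called, although DESeq2 gave no adjusted p for Adam23. Groups without overlap and with Dnmt1 KO libraries above were found for 2 of the 8, Adam8 and Adam9, as for 13.4% of all genes. Because the members were chosen with this contrast in view, nothing is read from these shares. The log2 fold change was positive for all 8, as for 52.4% of all genes, though that of Adam23 turned negative by edgeR (-0.23), by DESeq2 (-0.12) and without control replicate 2 (-0.31). The median log2 fold change of the 8 was 0.32, or 0.31 without Adam8, and that of all genes 0.02. Dnmt1 KO replicate 2 was the highest of its group for 6 of the 8, as for 37.1% of all genes.

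**Figure D2:**
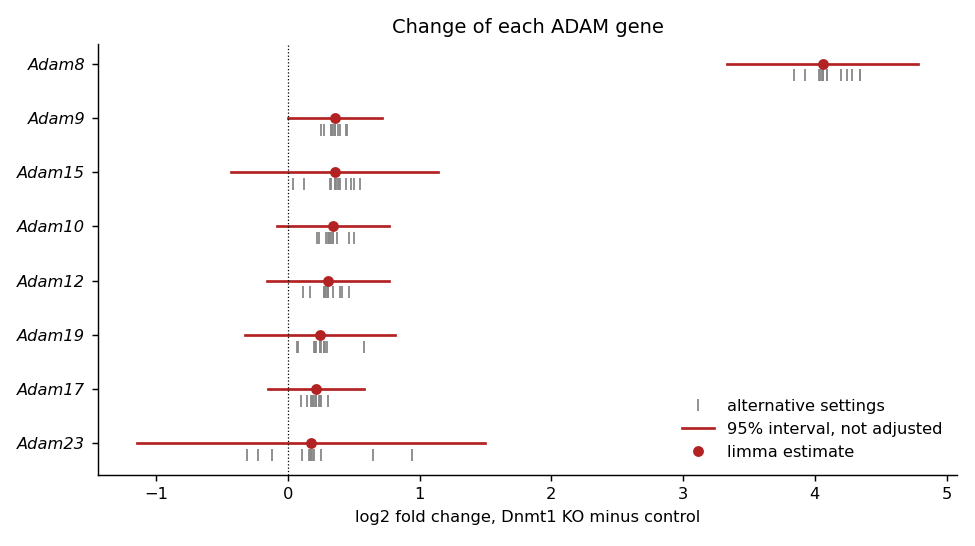
Log2 fold change, Dnmt1 KO minus control, of each ADAM gene (red points) with its 95% interval, not adjusted, and the values under the alternative settings (grey marks). The interval of Adam8 runs from 3.33 to 4.79, while the intervals of all others except Adam9 cross 0. That of Adam9 starts only just above 0, at 0.00066.

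Per length of exon, the order of the genes could be compared within a group. In Dnmt1 KO libraries the mean scaled count per kb of exon was 66.5 for Adam9, 58.7 for Adam12, 53.8 for Adam10, 40.6 for Adam17, 31.5 for Adam19, 26.9 for Adam8, 9.70 for Adam15 and 0.178 for Adam23. In control libraries it was 51.7 for Adam9, 47.3 for Adam12, 42.3 for Adam10, 34.9 for Adam17, 25.3 for Adam19, 7.31 for Adam15, 1.28 for Adam8 and 0.183 for Adam23. The order was thus the same in both groups but for Adam8, which stood sixth in Dnmt1 KO libraries and seventh in control libraries. From Adam9 down to Adam17, each gene overlapped the next in range over the libraries of a group, although Adam10 lay above Adam17 in all 3 libraries of each group. Genes further apart in the order did not always overlap: the ranges of Adam9 and of Adam12 lay wholly above that of Adam17 in both groups. In Dnmt1 KO libraries the ranges of Adam17 and Adam19, and those of Adam19 and Adam8, also overlapped, and Adam8 lay above Adam19 in 1 of the 3 libraries. In control libraries the range of Adam8 lay below that of Adam15 and above that of Adam23. Adam8 made up 10.3%, 10.9% and 6.82% of the per-kb sum of the 8 genes in Dnmt1 KO libraries, against 0.511%, 0.592% and 0.7099% in control libraries.

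**Figure D3:**
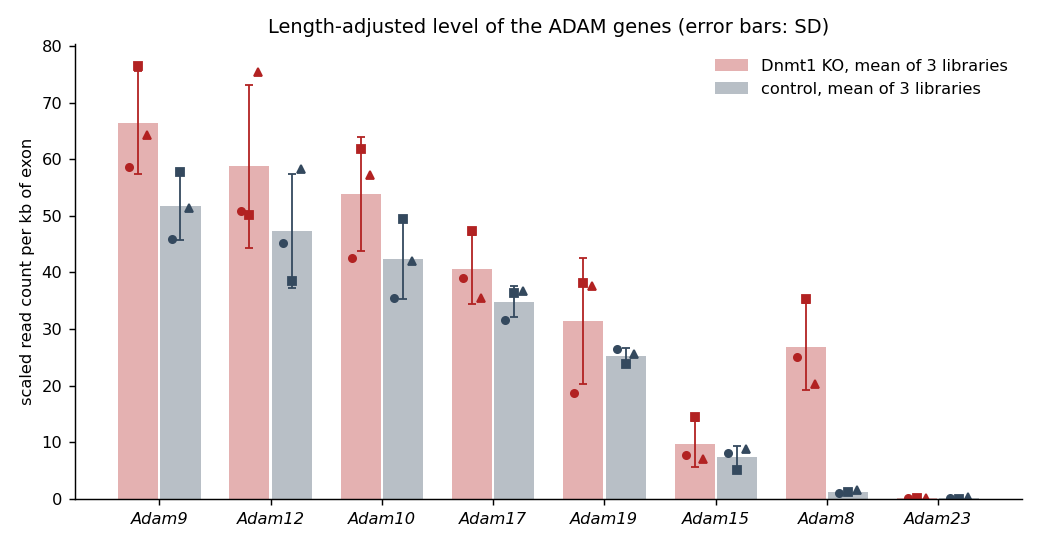
Mean scaled read count per kb of exon of each ADAM gene in Dnmt1 KO (red bars) and control libraries (grey-blue bars), with SD error bars and a point for each of the 3 libraries. Adam8 reaches the range of Adam19 in Dnmt1 KO libraries and lies near the foot of the axis in control libraries.

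The gene next to Adam8 also rose. It is 6430531B16Rik, named Spef1l in RefSeq, on the same strand and starting 185 bases beyond the end of Adam8 (chr7:139972303-139978755). It was singled out after its values were seen. Its value was 22.9, 19.1 and 11.1 in Dnmt1 KO libraries and 2.01, 0.952 and 0 in control libraries, without overlap. It thus passed the filter on low values through its Dnmt1 KO values, which limits what its call can show. By limma, 6430531B16Rik was higher by 3.32 on the log2 scale (SE 0.53, adjusted p = 0.0157), from 16, 19 and 9 reads in Dnmt1 KO libraries and 2, 1 and 0 reads in control libraries. The ratio of summed rates was 21.0 (exact interval 6.72 to 105), similar to the ratio of 21.4 of Adam8 but far less precise. The adjusted p over the 15 alternatives ran from 0.00371 to 0.108, and the call was lost with a pseudocount of 0.1 (adjusted p = 0.0818), without Dnmt1 KO replicate 1 (adjusted p = 0.107) and without Dnmt1 KO replicate 2 (adjusted p = 0.108). No 50-base word of either gene occurs in transcripts of another gene. The table gives 1 sum per gene, so where along 6430531B16Rik its reads lie was not tested.

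Tubgcp2, a gene of the gamma-tubulin complex on the same strand 3466 bases upstream of Adam8, had 71.7, 54.2 and 98.5 in Dnmt1 KO libraries and 84.3, 67.6 and 66.4 in control libraries. It was not called (log2 fold change 0.01, SE 0.24, 95% interval -0.52 to 0.53). On this stretch of chromosome 7, Adam8 and the gene downstream of it were thus called and the gene upstream was not, and the difference between these changes was not tested. Of 16 genes that flank the 8 members, 10 were tested. Of these, 1 was called higher, 6430531B16Rik, against 1.67% of all genes tested, and 0 lower, against 0.0953%. By limma, edgeR and DESeq2, 0 of the 8 tested neighbours of the other members were called. With so small a share of all genes called, nothing is read from this. Fam63b, beside Adam10, and Nipal4, beside Adam19, were the 2 with an unadjusted p under 0.05 by limma. Nipal4 had 1, 2 and 1 reads in Dnmt1 KO libraries and 0 in each control library. It thus passed the filter on low values through its Dnmt1 KO values, which favoured a positive change.

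**Figure D4:**
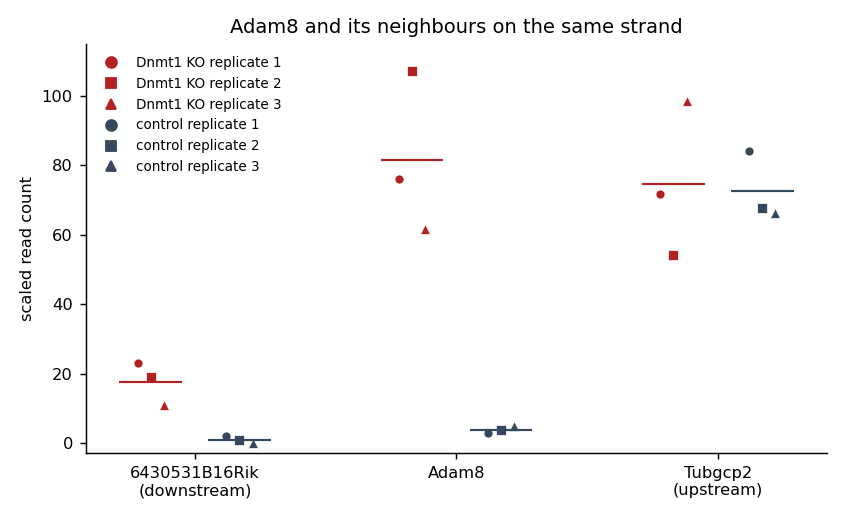
Scaled read count of 6430531B16Rik, Adam8 and Tubgcp2, which lie on 1 strand of chromosome 7, in each Dnmt1 KO library (red, left) and control library (blue, right), with a bar at each mean. The first and second genes are higher in every Dnmt1 KO library, and Tubgcp2 overlaps.

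Since ADAM8 is best known from myeloid blood cells, markers of such cells are given beside it. Of 20 macrophage and monocyte markers, 12 were at 0 in all 6 libraries, among them the leukocyte antigen Ptprc, Emr1 (F4/80), Tyrobp, Aif1 and the complement genes C1qa, C1qb and C1qc. A count of 0 allows up to 3 reads over a group. Csf1r was at 0 in all Dnmt1 KO libraries, and Lyz2 and Itgam did not exceed 2.01 in any library. The summed value of the list was 78.8 to 201 in Dnmt1 KO libraries and 21.9 to 40.1 in control libraries, and most of it was Laptm5, a lysosomal membrane protein gene of blood cells. Laptm5 had 71.7, 179.6 and 67.7 in Dnmt1 KO libraries and 35.1, 19.998 and 20.7 in control libraries (log2 fold change 1.92, SE 0.38, adjusted p = 0.0391, limma). Among Dnmt1 KO libraries, Laptm5 was highest in replicate 2, as were Adam8 and 37.1% of all genes tested, so nothing is read from this. Laptm5 was the 1 of the list's 4 tested markers that was called, but all 4 had a positive log2 fold change (median 1.67) and an unadjusted p under 0.05. The other 16 markers of the list were too low to test. Cd68, a lysosomal marker of macrophages, had 10.04, 5.02 and 3.69 in Dnmt1 KO libraries and 1.003, 1.90 and 2.07 in control libraries, without overlap (log2 fold change 1.37, adjusted p = 0.219, limma). Fcer1g, a signalling chain of Fc receptors, had 4.30, 12.04 and 1.23 in Dnmt1 KO libraries and 2.01, 0 and 0.691 in control libraries (1.64, adjusted p = 0.301). Cd14, a receptor for bacterial lipopolysaccharide, had 1.43, 1.003 and 6.15 in Dnmt1 KO libraries and was at 0 in all control libraries. Both Fcer1g and Cd14 passed the filter on low values through their Dnmt1 KO values. The filter thus favoured a positive change for Fcer1g and Cd14. The call of Laptm5 was lost in 6 of 15 alternatives. These were a pseudocount of 0.1 and the omission of any library except control replicate 2. Its adjusted p by limma was highest, at 0.131, without control replicate 3. The part of cells that express these markers in the level of Adam8 was not tested.

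Of 10 neutrophil markers in the table, 7 were at 0 in all libraries, including S100a8, S100a9, Mpo and Elane, and their summed value was 5.02 to 22.9 in Dnmt1 KO libraries and 15.9 to 21.9 in control libraries. By limma, 0 of 2 tested neutrophil markers were called, with 0 at an unadjusted p under 0.05 and 0 by edgeR and DESeq2. The most abundant by scaled count, as for each list here, was the chemokine receptor gene Cxcr2, which had 21.5, 4.01 and 9.85 in Dnmt1 KO libraries and 17.1, 21.0 and 14.5 in control libraries. All 10 lymphocyte markers in the table were too low to test. The markers listed for fibro-adipogenic progenitors, which are the fibroblast-like cells of muscle, had summed values of 709 to 1192 in Dnmt1 KO libraries and 392 to 694 in control libraries, so these ranges did not overlap. Of 7 tested markers of that list, Col1a1 and Gsn were called higher and 0 lower. All 7 had a positive log2 fold change (median 0.95), as had 52.4% of all genes tested. The change of the most abundant, Col3a1, was 0.31 on the log2 scale (adjusted p = 0.488, limma). Col1a1 and Gsn each lost their call in 8 of 15 alternatives, each library except control replicate 2 left out among them. Of 5 tested endothelial markers 0 were called by limma, edgeR and DESeq2, with 1 at an unadjusted p under 0.05 by limma, and the most abundant, Vwf, had a log2 change of 0.85. Among 8 tested markers of satellite cells and myoblasts, 3 had an unadjusted p under 0.05 by limma, and 1 of them, Pax7, was called, as lower (log2 fold change -0.85, SE 0.17, adjusted p = 0.0441). The other two were Des, the most abundant, with a change of 0.90 (adjusted p = 0.194), and the myogenic factor gene Myf5, with one of -0.77 (adjusted p = 0.184) and no overlap between the groups. Without control replicate 2, Des (1.21, adjusted p = 0.00771) and Cdh15 (1.58, adjusted p = 0.00279) were called higher and Myf5 (-1.002, adjusted p = 0.0140) lower, beside Pax7. Pax7 lost its call in 6 of 15 alternatives, likewise without each library except control replicate 2. Of 20 contractile genes, 18 had a positive log2 fold change (median 0.68). By limma, edgeR and DESeq2, 0 of the 20 were called, with 0 at an unadjusted p under 0.05 by limma. Without control replicate 2, however, 12 were called higher. The most abundant, Ttn, had a change of 0.51 (adjusted p = 0.721, limma). The part of the cells that express any of these markers in the level of any ADAM gene was not tested.

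**Figure D5:**
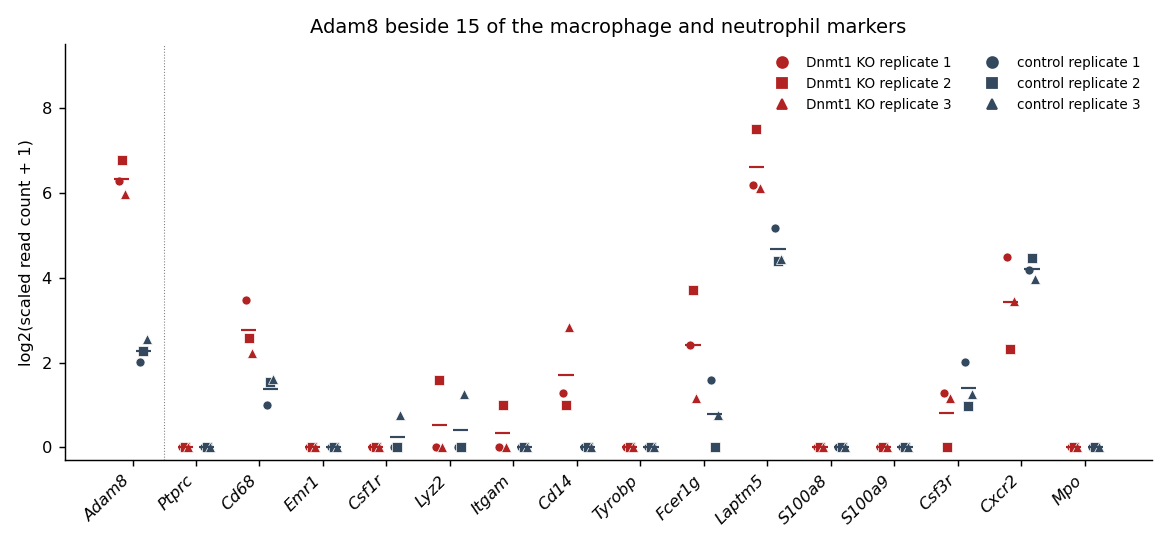
Level, as log2(scaled read count + 1), of Adam8 and of 15 macrophage and neutrophil markers in each Dnmt1 KO library (red, left) and control library (blue, right), with a bar at each mean. Ptprc, Emr1, Tyrobp, S100a8, S100a9 and Mpo lie at 0 in all 6 libraries.

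The other relatives of the 8 genes were mostly silent. Of the 26 remaining ADAM genes, many of which are known from testis, 18 were at 0 in all libraries and 5 were tested. By limma, edgeR and DESeq2, 0 of the 5 were called, and 0 had an unadjusted p under 0.05 by limma. DESeq2 gave no adjusted p for Adam23, and Adam11, Adam21 and Adam22 were lower still. For genes this low, the lack of a DESeq2 call thus shows nothing. The most abundant, Adam1a, had 4.30, 5.02 and 2.46 in Dnmt1 KO libraries and 6.02, 6.67 and 9.68 in control libraries (log2 fold change -0.79, adjusted p = 0.419). Of 15 tested ADAMTS genes, the secreted cousins that cut matrix proteins, 1 was called higher and 0 lower, with a median log2 fold change of 0.13 against 0.02 for all genes. That gene was Adamts2, which removes the amino-terminal propeptide of procollagens. It had 18.6, 19.1 and 20.9 in Dnmt1 KO libraries and 2.01, 6.67 and 4.15 in control libraries (log2 fold change 2.06, SE 0.42, adjusted p = 0.0441, limma). Its call was lost in 8 of 15 alternatives, with adjusted p up to 0.191, and these include DESeq2 and the omission of any library except control replicate 2. The most abundant ADAMTS gene, Adamts14, differed by 0.02 on the log2 scale (adjusted p = 0.979).

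Genes that act on ADAM proteins did not pass the test. These were 8 iRhom and tetraspanin partners that bring ADAM17 and ADAM10 to the surface (median log2 fold change 0.37), 4 metalloprotease inhibitors (0.58), 4 convertases that remove prodomains (-0.18) and 10 partners of the cytoplasmic tails (0.25). Frmd8, which stabilises the complex of iRhoms and ADAM17, had 74.6, 140.5 and 80.0 in Dnmt1 KO libraries and 68.2, 74.3 and 58.1 in control libraries (adjusted p = 0.382). Timp2, the most abundant inhibitor, had 447, 441 and 242 in Dnmt1 KO libraries and 201, 486 and 169 in control libraries (adjusted p = 0.546). Control replicate 2, which stood apart in contractile genes, was the highest library for Timp2, and without it Timp2 was called higher (by 0.97 on the log2 scale, adjusted p = 0.0254). The log2 fold change was 0.59 for Timp1 (adjusted p = 0.306) and, for Furin, the most abundant convertase, 0.35 (adjusted p = 0.456). For Tspan5, Pcsk7, Sh3glb1 and Actn1, the other leading genes of these lists, the log2 fold changes were 0.25, -0.10, -0.03 and 0.11.

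Known substrates and partners were likewise not called by limma with all libraries and no replicate term. The lists held 7 tested EGF receptor ligands (median log2 fold change 0.44), 7 Notch receptors and ligands (0.21), 6 gamma-secretase subunits, which cut Notch after ADAM10 does (0.19), 33 other shed surface proteins (0.27), 4 secreted substrates of ADAM12 and ADAM9 (0.58), 9 integrins that bind disintegrin domains (0.25) and 1 LGI gene. Hbegf, the most abundant EGF receptor ligand gene, had 17.2, 26.1 and 20.9 in Dnmt1 KO libraries and 37.1, 16.2 and 49.1 in control libraries (adjusted p = 0.552). Notch2, the most abundant Notch receptor gene, had 168, 261 and 222 in Dnmt1 KO libraries and 193, 201 and 236 in control libraries (adjusted p = 0.959). Without control replicate 2, which was high for both, Notch3 (log2 fold change 1.91, adjusted p = 0.00175) and Notch1 (0.94, adjusted p = 0.0145) passed as higher. Lrp1, an endocytic receptor that is also shed, had 938, 1578 and 1189 in Dnmt1 KO libraries and 721, 754 and 707 in control libraries, without overlap (log2 fold change 0.73, SE 0.19, adjusted p = 0.101).

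The receptor kinase gene Axl, the most abundant shed protein gene, had a log2 fold change of 0.00 (SE 0.25), Fn1 one of 0.14 (SE 0.52) and Lama2 one of 1.02 (SE 0.30, adjusted p = 0.141). Itgb1, the most abundant integrin gene, had 1411, 2066 and 1588 in Dnmt1 KO libraries and 1391, 1404 and 1416 in control libraries (adjusted p = 0.529). For Areg, Jag2, Ncstn, Aph1a, Itgav and Lgi2, the other leading genes, the log2 fold changes were 0.68, 0.21, 0.32, 0.15, 0.42 and -0.24. Over the 12 lists without a call, which held 98 tested genes, 16 genes had an unadjusted p under 0.05 by limma, and edgeR called 0. The share of all genes under that level is not given here, so nothing is read from the 16. DESeq2 called 2, Lrp1 as higher (log2 fold change 0.74, adjusted p = 0.0249) and Cdh2, a cadherin gene, as lower (-0.66, adjusted p = 0.0362).

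The genes whose pattern was most like that of Adam8 were found by Pearson's r of log2(value + 1) over the 6 libraries, among 9409 tested genes with a mean of at least 10. They were Cep170b (r = 0.998), L3mbtl3 (0.998), Nacc2 (0.997), Mapkapk3 (0.996) and Rnf169 (0.995). The 6 libraries fall into the 2 groups, and each Dnmt1 KO library held fewer reads than each control library. The value of r here thus mostly ranks genes by how evenly they separate the groups, and it is a description. The size of the difference was smaller in all 5. L3mbtl3, a methyl-lysine reader gene, had 78.9, 83.3 and 72.6 in Dnmt1 KO libraries and 29.1, 28.6 and 30.4 in control libraries (log2 fold change 1.38, SE 0.19). For Cep170b, Nacc2, Mapkapk3 and Rnf169 the log2 fold changes were 0.84, 1.36, 1.64 and 1.07, and all but Nacc2 (adjusted p = 0.0509, limma) were called. The ranking picked genes that separate the groups in these same libraries, so nothing is read from these calls. Among the other members, r with Adam8 was 0.82 for Adam9, 0.70 for Adam17, 0.66 for Adam10, 0.49 for Adam15, 0.47 for Adam12 and 0.34 for Adam19.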

How the data were processed

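The table deposited by the authors holds a signal for 23420 genes: counts of reads, scaled by 1 factor per library. TopHat, featureCounts and the build mm10 are named in the submitters' processing notes. Tool versions, gene annotation, strand setting and scaling method were not given in the sources used. The library kit keeps strand, per the labels' protocols. All values in all 6 libraries were whole multiples of the smallest one (100%, tolerance 0.001). Taking the smallest as 1 read gave back the reads assigned to genes.

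Genes that reached 1 in 3 or more libraries were tested as log2(value + 1) by limma 3.58.1 (R 4.3.3, intensity trend), with Benjamini-Hochberg adjustment at 0.05 over 12591 genes. With 3 libraries against 3, a permutation test of a single gene cannot go below p = 0.1. Alternatives, 15 in all, were 3 other scalings, 2 other filters (none, and at least 5), a pseudocount of 0.1, a replicate block, each library left out, and edgeR 4.0.16 (quasi-likelihood) and DESeq2 1.42.0 on recovered reads. The code was tested on simulated data. Per-kb values divide by exon length, and 50-base words come from GENCODE transcripts.

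The members and the lists were chosen with earlier results of these data known. Named genes were the 8 members, Dnmt1, the called and the 2 most abundant tested genes of each of 13 lists, the most abundant of 7 marker lists and the 5 genes most like Adam8. Older symbols matched 4 list genes. Promoters are from RefSeq (6 of the 8 members matched). Protein sequences were not used here.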

Additional observations from a re-analysis of the deposited data

How the results depend on the processing

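Adam8 was called higher in all 15 alternatives (log2 fold change 3.84 to 4.34), and the 7 other members in none of them. By DESeq2, Adam23 had no adjusted p and so could not be called. Adam23 turned negative by edgeR (-0.23), by DESeq2 (-0.12) and without control replicate 2 (-0.31; up to 0.65 with another library left out), and could not be tested under the filter of at least 5. Over all genes, 222 were called. A pseudocount of 0.1 gave 127 (121 higher, 6 lower) and the replicate block 435 (359 higher, 76 lower). Leaving out 1 library gave 13 (without Dnmt1 KO replicate 1) to 773 (without control replicate 2, 659 higher and 114 lower). The other omissions gave 19 and 74 without Dnmt1 KO replicates 2 and 3, and 68 and 94 without control replicates 1 and 3. Same-numbered libraries deviated together with r of -0.06, 0.22 and 0.31 for replicates 1, 2 and 3. Unlike-numbered libraries had r from -0.36 to 0.19. Whether the numbers pair the samples cannot be told from so few libraries. With the replicate block, 4 other shed proteins (Lrp1 and Sdc1 higher, Met and Cdh2 lower) and 2 secreted substrates (Igfbp5 and Lama2 higher) were called, as were the satellite cell markers Des (higher, adjusted p = 0.0111) and Myf5 (lower, adjusted p = 0.0129), and no member changed its call. DESeq2 called 2 shed proteins. The ADAMTS count of 1 became 0 with no filter, with a pseudocount of 0.1 and by DESeq2, and lay between 0 and 1 with 1 library left out. Leaving out control replicate 2 raised the counts from 0 to 1 inhibitor, 1 tail partner (Actn2), 2 Notch genes, 6 shed proteins (4 higher, 2 lower) and 2 secreted substrates, while each other omission gave 0 for these lists. The cause was not tested. The 3 scalings changed no call of a member, and moved the median of all genes to between -0.01 and 0.06, against 0.02. Depth limits Adam8 in control libraries (14 reads), 6430531B16Rik and Adam23.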
